A study of Arabidopsis thaliana with 12 samples.

Results

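In the Arabidopsis thaliana mutant psah2, 63 array probes were listed at an intensity of exactly 0 on all 6 arrays while they were above 0 on all 6 arrays of the wild type (WT). These 63 of 3439 probes were chosen by that rule, with 3 further probes that met it left out, and 11 of them were annotated with a single gene. The groups were WT and the psah2 mutant, described in the labels as having no PSI-H2, a protein of photosystem I, and both were in the Columbia 0 ecotype. Total RNA was measured on 12 single-colour arrays, 6 for each genotype. Plant age, tissue, growth conditions and the way the mutant was made are not stated in the labels, so no tissue could be checked against markers. Nothing in the labels states that replicates were grown or extracted separately, and the spread between them may be technical. Arrays of consecutive replicate numbers (1 and 2, 3 and 4, 5 and 6) resembled each other: across the 2133 probes above 0 on all 12 arrays, log2 WT intensities correlated with r from 0.984 to 0.987 in these 3 pairs and from 0.955 to 0.974 in the 12 other pairs of WT arrays. The 6 WT arrays may thus hold fewer separate samples, and each SD below is over arrays. The same may hold for psah2, whose arrays were not correlated with each other.

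PSI-H is a small membrane subunit of photosystem I, the thylakoid complex that takes electrons from plastocyanin and reduces ferredoxin. It lies where the mobile light-harvesting antenna of photosystem II docks on photosystem I during state transitions, the process by which plants rebalance excitation between the photosystems. The members were picked by their intensities and not by a pathway or by any link to photosystem I. What an intensity of 0 stands for in the deposited table is not stated, so the members are described only as listed at 0 in psah2.

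The rule used the WT against psah2 contrast of every member, so that contrast is described below and not tested. No fold change is given, since all psah2 values are 0. By intensity alone 66 of the 3439 probes met the rule, which was 1.92% of all probes. Of the 63 members, 16 were annotated with several genes and 36 had no gene listed, and none of these 52 is named. Among probes above 0 on all WT arrays, members were 1.89% of those with a single gene, 2.15% with several and 2.28% with none. The 11 genes of the single-gene members all matched a protein-coding locus. RALFL32 was the only one for which the gene table used here gave a symbol, and the others are given by their locus.

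AT2G26110 was the brightest member with a single gene. Its WT intensities were 0.965, 0.841, 0.785, 0.911, 0.263 and 0.225 on replicates 1 to 6, on a deposited scale that ends at 100, and 0 on all 6 psah2 arrays. WT replicates 5 and 6 were low and the other 4 WT replicates lay close together, so that the mean of 0.665 had an SD of 0.332 (n = 6). The median intensity of all probes was also lowest on those arrays, at 0.304 and 0.305, but on the other 4 WT arrays it was only 0.333 to 0.379.

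AT2G37880 gave WT intensities of 0.379, 0.387, 0.358, 0.359, 0.323 and 0.314, with a mean of 0.353 ± 0.029 (SD, n = 6). All 6 WT values lay in a narrow range, while all 6 psah2 values were 0. AT4G05070 had nearly the same mean, 0.352 ± 0.058 (SD, n = 6), from WT values of 0.358, 0.286, 0.404, 0.295, 0.430 and 0.336. AT2G37000 followed with 0.380, 0.382, 0.344, 0.315, 0.280 and 0.300, a mean of 0.333 ± 0.042 (SD, n = 6). The means of AT2G37880, AT4G05070 and AT2G37000 differed by less than the SD of AT4G05070, and each was close to the median of its own 6 values.

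AT5G25990 varied more among the WT arrays, with values of 0.386, 0.249, 0.266, 0.161, 0.171 and 0.171 and a mean of 0.234 ± 0.087 (SD, n = 6). WT replicate 1 was the high array for this gene. AT2G23890 had a similar mean of 0.228 ± 0.054 (SD, n = 6) from values of 0.229, 0.310, 0.213, 0.229, 0.142 and 0.244, with WT replicate 5 the low one. RALFL32 (AT4G14010) belongs to the RALF-like family of small, secreted, cysteine-rich signalling peptides of plants, which act through receptor kinases at the cell surface. Its WT intensities were 0.155, 0.154, 0.137, 0.164, 0.160 and 0.174, a mean of 0.157 ± 0.012 (SD, n = 6). RALFL32 had the smallest relative spread of the 11 genes, a coefficient of variation (the SD as a percent of the mean) of 7.91%, although 36 of the 63 members were brighter.

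The last 4 genes were at WT means near 0.1 or below. AT1G07040 was at 0.168, 0.0807, 0.133, 0.129, 0.105 and 0.0815, AT3G57630 at 0.0833, 0.0533, 0.157, 0.165, 0.0955 and 0.130, and AT2G03140 at 0.0858, 0.136, 0.1, 0.124, 0.0666 and 0.129. Their means were 0.116 ± 0.034, 0.114 ± 0.044 and 0.107 ± 0.028 (SD, n = 6 each), which differ from each other by less than these SDs. AT4G05030 was the dimmest, with WT values from 0.0168 to 0.0602, a median of 0.0448 and a mean of 0.0425 ± 0.0176 (SD, n = 6). In every one of the 11 genes the lowest WT value was above the 6 psah2 values of 0, as the rule requires.

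The members without a single gene reached higher levels. The brightest had no gene listed, with a WT mean of 1.96 ± 0.37 (SD, n = 6) and WT values from 1.45 to 2.49, and psah2 values of 0. The next, with several genes, was at 1.22 ± 0.33 in WT (SD, n = 6). Over the 63 members the WT means ran from 0.0196 to 1.96 with a median of 0.208, and 55 of them were below 0.5. The median was 0.228 for the 11 members with a single gene, 0.264 for the 16 with several and 0.189 for the 36 with none listed. The median over the members on single WT arrays ranged from 0.163 to 0.214. All 2908 probes above 0 on the 6 WT arrays had a median WT mean of 0.417, so the members were dimmer as a set. Single members were bright, and the brightest lay at percentile 94.3 of all probes.

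The members were next set beside probes of the same WT level that stayed above 0 in psah2. In the band of WT means from 0.0625 to 0.125, 15 of 194 probes, or 7.73%, were members. This share was 3.40% (18 of 530) from 0.125 to 0.25, 1.85% (17 of 919) from 0.25 to 0.5, 0.838% (6 of 716) from 0.5 to 1 and 0.667% (2 of 300) from 1 to 2. The 5 other members lay below 0.0625, among 53 probes between 0.015625 and that level, and no member had a WT mean of 2 or more. The share of members was lower in each brighter band from 0.0625 upward, but with the bands shifted it was level between 0.354 and 1.41, at 0.80% (7 of 875) and then 0.826% (4 of 484).

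In the bands of WT means between 0.125 and 2, more than 50% of the probes were above 0 on all psah2 arrays, and their median was lower in psah2 than in WT. From 0.25 to 0.5, where AT2G37880, AT4G05070 and AT2G37000 lie, 667 of 919 probes were above 0 on all 6 psah2 arrays. Those 667 had a median WT mean of 0.360 and a median psah2 mean of 0.125, with quartiles of 0.0768 and 0.215. From 0.5 to 1, the band of AT2G26110, 631 of 716 probes stayed above 0 on all psah2 arrays, at a median of 0.673 in WT and 0.236 in psah2. From 0.125 to 0.25, which holds AT5G25990, AT2G23890 and RALFL32, 289 of 530 stayed above 0, at medians of 0.194 and 0.0797. A further 223 of these 530 were at 0 on 1 to 5 psah2 arrays, so that zeros on only some of the psah2 arrays were common at this level. From 0.0625 to 0.125, the band of AT1G07040, AT3G57630 and AT2G03140, only 65 of 194 probes stayed above 0 on all psah2 arrays, at medians of 0.0996 in WT and 0.0633 in psah2. From 0.03125 to 0.0625, which holds AT4G05030, 7 of 43 did, and their median was higher in psah2, at 0.0749 against 0.0499 in WT. These 7 were chosen by their psah2 values, and 33 of the 43 were at 0 on 1 to 5 psah2 arrays. In every band this choice can raise the psah2 median, which is not the level of the whole band.

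The WT values of most members, above all of dim ones, were also less even than those of such neighbours in level. The coefficient of variation over the 6 WT arrays had a median of 23.8% in the members. In 48 of the 63 members it was above the median of the probes of the same band that were above 0 on all 12 arrays. In the band from 0.25 to 0.5 the medians were 16.5% in members and 14.5% in the others, and from 0.0625 to 0.125 they were 38.5% and 20.1%. From 0.5 to 1 only 3 of 6 members were above the median of the others. With shifted bands the order was reversed from 0.354 to 0.707, at 13.2% in members and 14.0% in the others. Across the 63 members, log2 WT intensities correlated with Pearson r from 0.72 to 0.90 in the 3 pairs of consecutive WT arrays. In the other 12 pairs r ran from 0.73 to 0.90. Replicates 1 and 2 had the highest r of all, 0.903, and replicates 5 and 6 the lowest, 0.718. Members near 0 can weigh heavily on a log2 scale, as 1 at 0.000518 and 0.0347 on WT replicates 5 and 6. The likeness of consecutive arrays thus cannot be judged from these r alone. These correlations are over probes, which are not independent replicates, and the members span a narrower range of levels.

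The arrays of the genotypes differed in how many probes were at 0. Between 448 and 472 probes were at 0 on a WT array and between 690 and 775 on a psah2 array, and the median over all probes averaged 0.339 ± 0.033 over the WT arrays and 0.0946 ± 0.0037 over the psah2 arrays (SD, n = 6 each). The opposite rule, at 0 on all 6 WT arrays and above 0 on all 6 psah2 arrays, was met by 1 probe, or 0.0291% of all probes. That probe had no gene listed, at a psah2 mean of 0.0415 ± 0.0156 (SD, n = 6).

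With equal numbers at 0 on every array the counts in both directions were close. When the dimmest probes of each array were set to 0 until every array had 775 probes at 0, as on the psah2 array with the most, 36 probes met the rule and 34 met the opposite one. Without the 3 left out, the intensity rule alone then gave 37 probes, or 1.08%, against 0.989% in the opposite direction. Between any WT and psah2 array, this step leaves as many probes at 0 only in psah2 as only in WT. Close counts were thus largely set by the step, which added most of its zeros to WT arrays. It cannot decide whether the excess in the deposited values is particular to psah2. Of the 63 members 34 were among the 36. AT2G26110, AT2G37880, AT4G05070, AT2G37000, AT5G25990, AT2G23890 and RALFL32 still met the rule, while AT1G07040, AT3G57630, AT2G03140 and AT4G05030 did not. These last 4 are the dimmest of the 11 genes in WT. The step left the psah2 zeros of members as they were, so which members still met the rule depended on WT intensity alone.

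Members tended to stand next to each other in the numbering of the probes. The numbers run up to 4607, and the labels do not state how they map onto the array surface. Of 47 members whose next number was in the table, 8 were followed by another member, or 17.0%, while members made up 1.83% of the probes. In 7 of these 8 pairs neither probe had a gene listed, and in none did both have a single gene. Over all 63 members 36 had no gene listed and 11 a single gene. Of all 3439 probes, 1877 had none listed and 692 a single gene, which is a similar split. At a step of 2 numbers 4 of 40 were followed by a member and at a step of 3 the share was 8.70% (4 of 46). Within 3 numbers of another member lay 26 of the 63, among them AT2G03140, AT3G57630 and AT4G05070, while the other 8 genes had no member that near.

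Probes beside a member were also more often at 0 in psah2. Of 67 probes that were not members but had a number next to one, 17 were at 0 on 5 or 6 psah2 arrays, or 25.4%, against 10.8% of the 3306 other probes. For WT arrays the same shares were 11.9% and 12.9%. Members were uneven along the numbering, with 14 among the 300 probes numbered 4225 to 4608 and 0 among the 286 numbered 385 to 768. The part of probe number in the zeros was not tested.

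Probes at 0 on all WT arrays followed another order. Of 257 probes at 0 on all WT arrays with a number 6 further on in the table, 128 were followed there by another, or 49.8%, against 13.0% at a step of 1. Probes at 0 on all psah2 arrays were followed by another in 25.2% of cases at a step of 1 and in 11.9% at a step of 6, while they made up 7.13% of the probes. At a step of 12 the shares were 44.9% for WT and 15.8% for psah2. Of the 261 probes whose number is divisible by 6, 197 were at 0 on all 6 WT arrays, or 75.5%, against 172 of the 3178 others, or 5.41%. On psah2 arrays 74 of the 261 were at 0 on all 6, or 28.4%, against 174 of the others, or 5.48%. On average 71.8% of the 261 were at 0 on a single psah2 array, against 17.1% of the others. Zeros were thus frequent among the 261 in both genotypes. The labels do not state what sets these 261 probes apart, and 51 of them were annotated with a single gene. A probe at 0 on any WT array cannot be a member, and on average 85.0% of these 261 were at 0 on a WT array. Few of them could thus be members. Such a number was held by 2 members and by none of the 11 genes. With these probes left out, 61 members against 1 opposite probe were found, and with equal numbers at 0 as well, 33 against 42.

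At the edge of the rule the values were small. The lowest WT values of any member were 0.000518 and 0.000736, in a probe with several genes and in one with none listed, and the lowest of a named gene was 0.0168 for AT4G05030 on WT replicate 4. Just outside, 43 probes were above 0 on all WT arrays and at 0 on exactly 5 psah2 arrays, and their single psah2 value ran from 2.35e-05 to 1.12 with a median of 0.0223. Of these 43 values 12 were on psah2 replicate 5 and 10 on replicate 6, the psah2 arrays with the fewest zeros, against 3 to 7 on each other array.

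Only 5 probes with a single gene missed the rule by 1 psah2 array. AT3G52960 was the brightest, at a WT mean of 0.270 ± 0.009 (SD, n = 6) and at 0.0870 on psah2 replicate 1. AT2G46190 was at 0.179 ± 0.034 in WT and at 0.0251 on psah2 replicate 6, and AT1G08845 at 0.164 ± 0.042 and at 0.0538 on psah2 replicate 5 (SD, n = 6 each). AT4G09970 and AT1G50770 were dimmer in WT, at 0.0748 ± 0.0211 and 0.0576 ± 0.0164 (SD, n = 6 each). Their single psah2 values, 0.15 on replicate 6 and 0.264 on replicate 2, were above every WT value of the same probe. At this level a probe thus went from 0 to above its WT range between psah2 arrays.

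No second probe was annotated with any of the 11 genes, so no other readout of them was found on the array. By the chromosome in the locus names, 5 of the 11 lie on chromosome 2, among 110 single-gene probes above 0 on all WT arrays, or 4.55%. Chromosome 4 holds 3 (of 107), and chromosomes 1 (of 147), 3 (of 106) and 5 (of 110) hold 1 each. Over all such probes the members were 11 of 580. A difference between chromosomes was not tested, and 11 genes are too few to show one. AT4G05030 and AT4G05070 are near neighbours, with 3 protein-coding genes between them in the gene table. Their probes, numbered 4349 and 4361, are also near each other in the numbering, where members tended to stand together. AT2G37000 and AT2G37880 have 91 between them, and their probes are numbered 1996 and 2032. Position on the chromosome and position in the numbering were not told apart. None of the 11 fell into any of 12 keyword groups, which covered organelles, gene expression, transport, signalling, proteolysis, redox and chaperones. The keywords were sought only in gene symbols and synonyms, and only 19 of 580 single-gene probes with a locus matched any. Of the 11 genes only RALFL32 had a symbol other than its locus, so this says little about their functions.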

How the data were processed

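The authors deposited 1 table of 3439 probes with an intensity per probe and array on a linear scale from 0 to 100; no column lay outside the 12 samples. Background correction, scaling, scanner and genome build are not given in the sources used here. Groups and replicate numbers come from the sample titles. The members and lists were chosen with earlier results of these data known.

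Deposited intensities were used without further normalization, since scaling leaves a 0 at 0. Means, SDs and counts were computed in Python 3.11.15 with pandas 2.3.3 and numpy 2.4.6, and Wilson intervals with scipy 1.17.1. The rule's contrast was not tested. Probes were named from the platform annotation and RefSeq genes of TAIR10.1; all genes of members annotated with a single gene are named, ranked by WT mean, and the 5 single-gene probes just outside the rule. No coordinates or sequences are given. The counting was tested on simulated data with planted members. These data had no zeros other than the planted ones, unlike the real arrays, so only the counting steps were checked. With 6 arrays per group, the number of arrays limits the precision. Alternatives changed the number of arrays at 0, the lowest WT intensity, the number of zeros per array and the replicates. The steps on probe numbers and the pairs of consecutive arrays left out were chosen after seeing the data.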

Additional observations from a re-analysis of the deposited data

How the results depend on the processing

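The 63 probes became 106 with at least 5 of 6 psah2 arrays at 0, 180 with at least 4 (37 with a single gene), 38 with WT above 0.1 (7 with a single gene), 36 with equal numbers at 0 (7), 33 with probe numbers divisible by 6 also left out (7), and 37 without members within 3 numbers of another. In the same order the opposite count of 1 became 3, 4, 0 (also 0 with a minimum of 0.05), 34 and 42. The median WT intensity of 0.208 became 0.167, 0.172, 0.291 (0.234 with a minimum of 0.05), 0.315 and 0.325. Leaving out 1 array gave 63 to 75 probes, 11 to 13 with a single gene, an opposite count of 1 to 3 (3 without WT replicate 1) and medians of 0.189 to 0.211. Leaving out 2 consecutive arrays gave 65 probes for each WT pair, 81 without psah2 replicates 1 and 2 or 3 and 4, and 95 (18 with a single gene) without psah2 replicates 5 and 6; the opposite count was 3 and the median 0.184 without WT replicates 1 and 2, and the opposite count was 2 without psah2 replicates 3 and 4 or 5 and 6. Scaling the WT arrays to a common median moved the WT means of the 11 genes by less than 1 SD. The highest share of members in a band of at least 100 probes was 7.73%, and 9.62% with shifted bands. No paired analysis was possible because the results come from no test. The comparison of promoter motifs was not run. Intensities near 0 limit what can be said of the dim members.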
